A study of Drosophila melanogaster with 9 samples.

Results

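The 10 genes of the GstE cluster, GstE1 to GstE10, encode epsilon-class glutathione S-transferases and lie side by side on chromosome arm 2R of Drosophila melanogaster. They were chosen by name, with earlier results of these data known. Each probe set annotated to one of these genes was taken, whatever its signal. Each of the 10 genes had 1 probe set, among 10844 genes with at least 1 probe set on the array. The array files name no genome build, so only the order of the genes is used here. In the reference annotation the order is GstE10, GstE1, GstE2, GstE3, GstE4, GstE5, GstE6, GstE7, GstE8 and GstE9, with Idgf5 before the cluster and imd after it. The annotated spans of GstE10 and GstE1 overlap, and the members are close relatives in sequence. Whether each probe set tells its gene from its relatives was not examined here.

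Midguts came from w1118 larvae of the third instar, pooled 50 to an array, with 3 arrays in each of 3 groups. The first group was 108 h old (108 to 110 h for replicate 1) and then ate 1% wheat germ agglutinin (WGA) for 12 h. WGA is a wheat lectin that binds N-acetylglucosamine and chitin. The second group was 108 h old and was then starved for 12 h. The control group, described as normal, had an age label of 120 h and a 12 h label like the others. These pools are the labelled biological replicates, so an error below rests on variation between pools. In such bulk samples fewer cells of a type and less RNA per cell cannot be told apart.

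Glutathione S-transferases join the thiol of glutathione to electrophilic compounds, which makes them more soluble and ready for export. The epsilon and delta classes are the branches of the family that have expanded in insects. In mosquitoes an epsilon enzyme breaks down the insecticide DDT, and in flies GstE1 conjugates reactive aldehydes of lipid peroxidation. In larvae the midgut, with the fat body and the Malpighian tubules, is a main site of such detoxification.

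Signals below are log2 values after quantile normalisation, with an offset of 1.722 added before the logarithm. Differences are log2 changes ± SE from one limma fit over the 9 arrays. Each SE pools the 3 groups and is moderated by the other tested probe sets, so it is not a gene's own spread. A call is a Benjamini-Hochberg adjusted p under 0.05 over the 9718 probe sets that passed a filter on low values, at log2 2.77 (2.773) on at least 3 arrays. The 10 GstE probe sets passed it, 8 of them above it on 9 arrays. GstE4 was above it on 7 arrays and GstE2 on the 3 control arrays alone. GstE2 therefore had to be higher in control to be tested at all, and its changes are given apart.

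After starvation 8 of the 10 genes were called lower than in control, against 7.06% of all tested probe sets, and 0 were called higher, against 8.09% (15.1% in either direction). Without GstE2 the count was 7 of 9. At an unadjusted p under 0.05 in limma, 1 gene (GstE4) was higher. The median change of the 10 was -1.71, beside 0.01 over all tested probe sets. A filter at the 60th percentile left out GstE2, and the median of the other 9 was then -1.65, beside 0.04. On the WGA diet 4 genes were called lower, against 10.0% of all tested probe sets, and 2 higher, against 11.6% (21.6% in either direction). The median change was then -0.48, beside 0.03 over all tested probe sets. By the filter that left out GstE2, the median of the other 9 was -0.09, beside 0.07. In WGA against starvation 6 genes were called higher, against 5.93%, and 0 lower, against 5.55% (11.5% in either direction), with 1 gene (GstE10) lower at an unadjusted p under 0.05 in limma. The median difference was 0.96, beside 0.01, and without GstE2, by the 60th percentile filter, it was 1.01, beside 0.02. Both treatments were set against the same 3 control arrays, and each treatment enters a pair of these comparisons, so the 3 sets of changes are not independent.

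**Figure D1:**
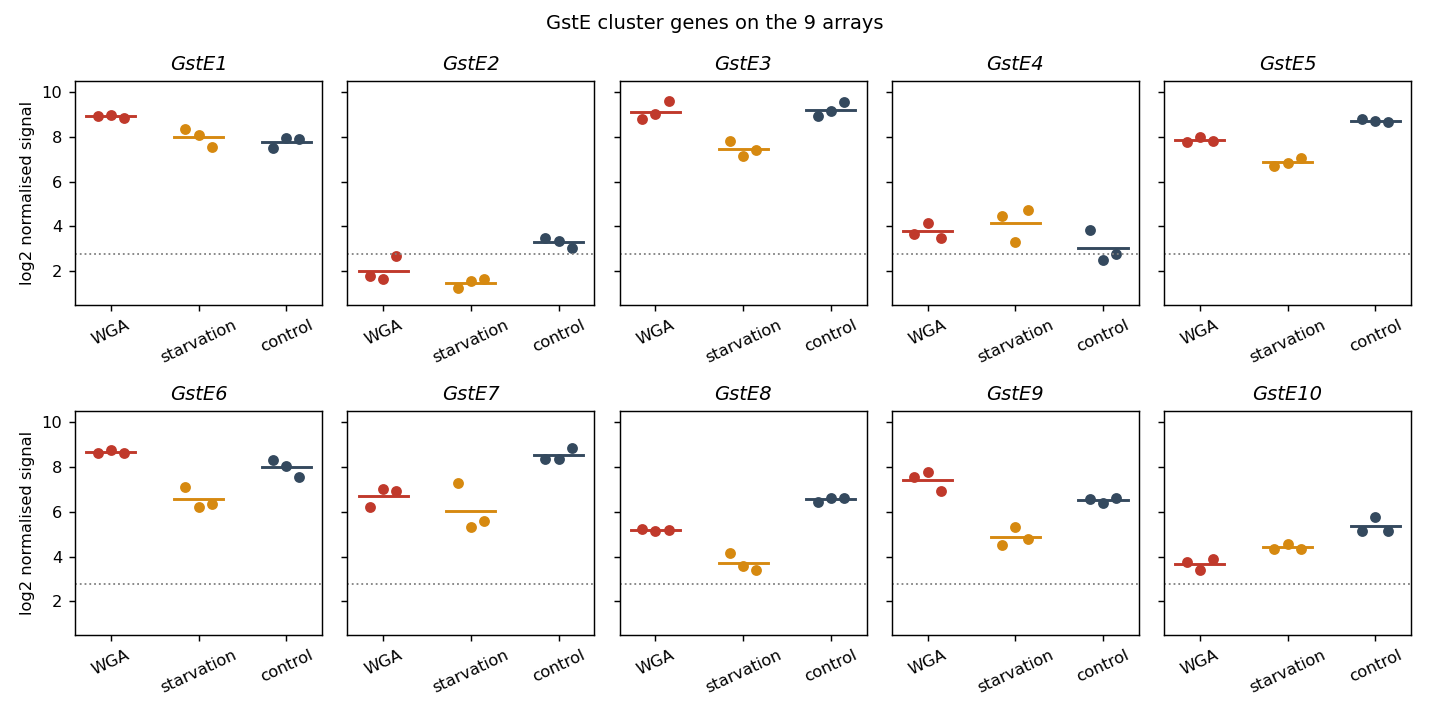
Normalised log2 signal of the 10 GstE genes on each array (points) with group means (bars), for WGA, starvation and control. The dotted line is the filter level of 2.77. GstE5, GstE6, GstE8, GstE9 and GstE10 show 3 separate levels. GstE9 has its highest values on the WGA arrays, and GstE2 lies above the line on the control arrays alone.

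GstE5, GstE7, GstE8 and GstE10 were called lower after both treatments. For GstE8 the WGA arrays were at 5.24, 5.16 and 5.18, the starvation arrays at 4.18, 3.59 and 3.38 and the control arrays at 6.44, 6.63 and 6.60. The 3 groups did not overlap, with starvation lowest and control highest. GstE8 fell by 1.37 ± 0.24 on the log2 scale with WGA (adjusted p = 0.000819) and by 2.84 ± 0.24 after starvation (adjusted p = 4.12e-06), a 7.18-fold lower signal in starved midguts. It was higher with WGA than after starvation by 1.47 ± 0.24 (adjusted p = 0.000875).

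GstE5 kept the same order with less spread. Its signal was 7.79, 7.98 and 7.82 with WGA, 6.72, 6.81 and 7.04 after starvation and 8.79, 8.71 and 8.68 in control. Again the 3 groups lay apart. GstE5 fell by 0.86 ± 0.14 with WGA (adjusted p = 0.000592) and by 1.87 ± 0.14 after starvation (adjusted p = 2.07e-06), and it was higher with WGA than after starvation by 1.01 ± 0.14 (adjusted p = 0.000313). Under deposited scaling (no further normalisation) or spike-in scaling (arrays aligned on the spike-in control probe sets), the WGA calls of GstE5 (-0.59, adjusted p = 0.117, and -0.53, adjusted p = 0.14) and of GstE8 (-0.83, adjusted p = 0.0632, and -0.76, adjusted p = 0.0858) were lost. Those scalings moved the median of all tested probe sets by 0.48 and 0.55. Relative to that shift GstE5 lay at -1.07 with either and GstE8 at -1.31. The scalings differ only by a constant per array, so this match was fixed in advance and adds no support.

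GstE7 was at 6.22, 7.03 and 6.92 with WGA, at 7.27, 5.30 and 5.58 after starvation and at 8.38, 8.35 and 8.87 in control. Starvation replicate 1 stood above the WGA arrays, while the other two lay below them. GstE7 fell by 1.81 ± 0.40 with WGA (adjusted p = 0.00507) and by 2.48 ± 0.40 after starvation (adjusted p = 0.000874), 3.51-fold and 5.60-fold. Between the treatments the difference of 0.67 had a 95% interval of -0.20 to 1.54 (adjusted p = 0.377). Without starvation replicate 1 that difference was 1.28 (adjusted p = 0.00589), and GstE7 was then called higher with WGA. With the deposited scaling it was 1.21 (adjusted p = 0.0296), but that scaling moved the median of all tested probe sets by 0.35. With median centring the GstE7 difference was 0.88 (adjusted p = 0.161).

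GstE10, at the outer end of the cluster, had the opposite order of the treatments. Signals were 3.75, 3.40 and 3.89 with WGA, 4.35, 4.58 and 4.32 after starvation and 5.15, 5.79 and 5.15 in control. These groups did not overlap. GstE10 fell by 1.68 ± 0.27 with WGA (adjusted p = 0.000484) and by 0.95 ± 0.27 after starvation (adjusted p = 0.0311). The starvation call was lost in 6 of 20 alternatives, among them the omission of starvation replicate 1, 2 or 3 or of control replicate 2 (adjusted p = 0.0566 to 0.132 over these), and the range over the alternatives was 0.0161 to 0.506. WGA against starvation gave -0.73 ± 0.27 (adjusted p = 0.114), although every WGA array lay below every starvation array.

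GstE9 was called in opposite directions after the treatments. It was at 7.54, 7.77 and 6.94 with WGA, at 4.52, 5.31 and 4.79 after starvation and at 6.57, 6.38 and 6.62 in control. All WGA arrays lay above the control arrays and all starvation arrays below them. GstE9 rose by 0.89 ± 0.25 with WGA (adjusted p = 0.0191, 1.86-fold) and fell by 1.65 ± 0.25 after starvation (adjusted p = 0.000463, 3.14-fold). The difference between the treatments, 2.54 ± 0.25 (adjusted p = 1.41e-05, 5.82-fold), was the largest of the 10 genes. The rise with WGA lost its call without WGA replicate 1 (adjusted p = 0.0722), WGA replicate 2 (0.104) or control replicate 2 (0.0716), and in eBayes without a trend (0.0644), within a range of 0.00107 to 0.104.

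GstE6 had a similar order. Its WGA arrays were at 8.62, 8.79 and 8.64, its starvation arrays at 7.11, 6.22 and 6.37 and its control arrays at 8.33, 8.07 and 7.58. No groups overlapped. GstE6 fell by 1.42 ± 0.23 after starvation (adjusted p = 0.000981) and was higher with WGA than after starvation by 2.12 ± 0.23 (adjusted p = 3.79e-05, 4.34-fold). Against control the WGA change of 0.69 ± 0.23 missed the threshold at adjusted p = 0.0503 and passed it in 10 of 20 alternatives, within a range of 0.00869 to 0.216. With median centring it was 0.49 (adjusted p = 0.216).

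GstE3 separated the starved larvae from both fed groups. Its signal was 8.80, 9.02 and 9.59 with WGA, 7.80, 7.14 and 7.41 after starvation and 8.95, 9.16 and 9.57 in control. The WGA and control arrays overlapped, and the starvation arrays lay below both. GstE3 fell by 1.77 ± 0.23 after starvation (adjusted p = 0.000142, 3.42-fold) and was higher with WGA than after starvation by 1.68 ± 0.23 (adjusted p = 0.000214). Against control the WGA change was -0.09, with a 95% interval of -0.58 to 0.40 (adjusted p = 0.832).

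GstE1, an enzyme with known activity on lipid aldehydes, was called higher with WGA against either other group. It was at 8.92, 8.97 and 8.86 with WGA, at 8.34, 8.10 and 7.56 after starvation and at 7.49, 7.94 and 7.89 in control. The WGA arrays lay above the rest, and the starvation and control arrays overlapped. GstE1 rose by 1.15 ± 0.19 with WGA against control (adjusted p = 0.000693, 2.21-fold). It was higher with WGA than after starvation by 0.92 ± 0.19 (adjusted p = 0.00636, but 0.0614 in eBayes without a trend, within a range of 0.00192 to 0.0614). Starvation against control gave 0.23, with a 95% interval of -0.19 to 0.65 (adjusted p = 0.496), and -0.048 with median centring.

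The remaining pair, GstE2 and GstE4, lay near the filter level. GstE2 was at 1.77, 1.62 and 2.68 with WGA, at 1.22, 1.55 and 1.65 after starvation and at 3.47, 3.32 and 3.05 in control. The fitted differences were -1.26 ± 0.50 with WGA (adjusted p = 0.0974) and -1.80 ± 0.50 after starvation (adjusted p = 0.0277), and since the treated arrays were below the filter level their size is uncertain. The starvation call was lost without starvation replicate 1 or 2 or control replicate 1 or 2 (adjusted p = 0.0594 to 0.0916), under deposited scaling (0.0866) or spike-in scaling (0.153), within a range of 0.00812 to 0.153.

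GstE4 was not called in any comparison. Its arrays stood at 3.66, 4.16 and 3.50 with WGA, at 4.46, 3.30 and 4.73 after starvation and at 3.84, 2.51 and 2.76 in control, and the groups overlapped in each comparison. The differences were 0.74 ± 0.45 with WGA (adjusted p = 0.285), 1.13 ± 0.45 after starvation (adjusted p = 0.12) and -0.39 ± 0.45 for WGA against starvation (adjusted p = 0.699). Without starvation replicate 2 or control replicate 1 the starvation difference was 1.56 (adjusted p = 0.0425) and 1.53 (adjusted p = 0.0468), and with spike-in scaling 1.74 (adjusted p = 0.0137). In that comparison spike-in scaling moved the median of all tested probe sets by 0.60.

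**Figure D2:**
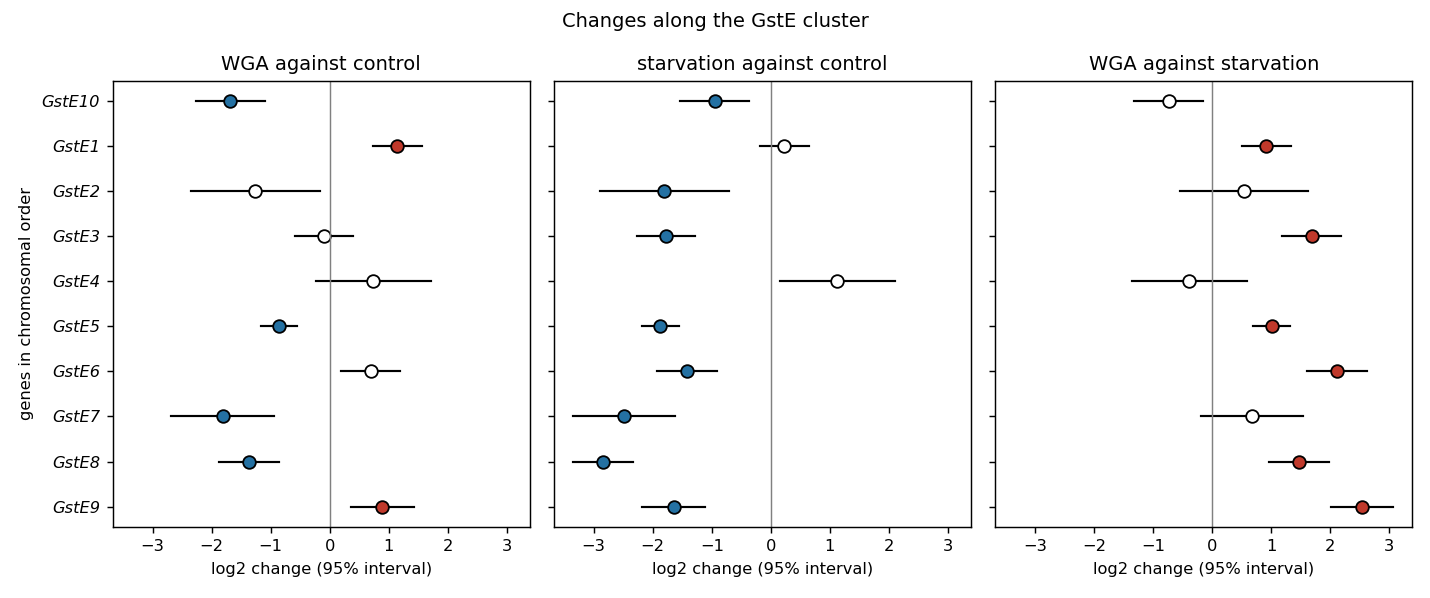
Log2 change of each GstE gene with its 95% interval, in chromosomal order, for the 3 comparisons. Filled points are called higher (red) or lower (blue) at an adjusted p under 0.05, and open points are not called. With WGA against control GstE9 lies at 0.89 beside its neighbour GstE8 at -1.37, while after starvation they lie at -1.65 and -2.84.

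Along the chromosome, some neighbours were called in opposite directions with WGA and others in the same one. GstE9 (95% interval 0.36 to 1.42) stood next to GstE8 (-1.88 to -0.86), and GstE1 (0.73 to 1.56) next to GstE10 (-2.27 to -1.10), while the neighbours GstE7 and GstE8 were both called lower. After starvation the stretch from GstE5 to GstE9 held 5 genes called lower, with changes of -2.84 to -1.42, against 7.06% of all tested probe sets. The fall was not confined to this stretch: GstE10 (-0.95), GstE2 (-1.80) and GstE3 (-1.77) were called lower too. The flanking genes were not called in any comparison: Idgf5, a chitinase-like growth factor gene, had changes of 1.16 ± 0.60 with WGA and 0.39 ± 0.60 after starvation, and imd, the adaptor of the immune deficiency pathway, 0.27 ± 0.34 and 0.28 ± 0.34.

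Counted by arrays alone, 3 members lay wholly above control with WGA (against 20.4% of all tested probe sets) and 5 wholly below (against 17.8%), or 4 of 9 without GstE2. After starvation 8 lay wholly below (against 14.2%), or 7 of 9 without GstE2, and 0 above (against 15.1%). With WGA 6 lay wholly above starvation (against 15.7%) and 1 below (against 14.2%).

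Across the 9 arrays the pair with the closest profiles was GstE5 and GstE8, with Pearson r = 0.961. Within groups, after removal of the group means, the same pair had r = -0.805, so the likeness lay between the group means. GstE7 and GstE8 had r = 0.898 over the 9 arrays and 0.785 within groups. GstE2 and GstE5 had 0.892 and 0.126, and GstE6 and GstE9 had 0.882 and -0.426. The lowest value was that of GstE1 and GstE10, -0.765. These values share the 9 arrays and the 3 group means.

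For each member the most similar other gene among 7935 had r = 0.945 to 0.997 over the 9 arrays, where the median best match of any tested gene was 0.954. The genes nearest to GstE8 were Argk1, an arginine kinase gene (r = 0.986), and Trxr1, the thioredoxin reductase gene (0.985). GstE9 was nearest to Gtpx, a peroxidase gene (0.987), and PIG-Wb (0.975), and GstE5 to pippin (0.997) and CG3348 (0.994). GstE1 was nearest to CG12379 (0.977) and RpLP1, a ribosomal stalk protein gene (0.965), GstE6 to CG15111 (0.979) and Ntf-2 (0.974), and GstE10 to CG4653 (0.973) and Got1, an aspartate aminotransferase gene (0.969). GstE3 was nearest to CG2065 (0.963) and CG3706 (0.940), GstE7 to mid (0.945) and clu (0.939), GstE2 to CG17571 (0.971) and CG17726 (0.952), and GstE4 to Lsm10 (0.956) and E2f1 (0.952).

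Other transferase classes were counted on the same fit. Of all tested probe sets, 11.6% were called higher and 10.0% lower with WGA, and 8.09% and 7.06% after starvation. In WGA against starvation these shares were 5.93% and 5.55%. Of the epsilon genes outside the cluster, 3 of 4 were tested. GstE11 rose by 1.47 ± 0.18 with WGA and by 0.76 ± 0.18 after starvation, while GstE13 fell by 1.55 ± 0.30 and by 1.18 ± 0.30. GstE12 fell by 1.25 ± 0.16 with WGA, and after starvation it had a change of -0.22 ± 0.16. Of 10 tested delta genes, 8 were called higher and 1 lower with WGA, with a median change of 2.60, and 4 were called higher after starvation, with a median of 0.57. GstD5, called higher after both, had a mean of 2.24 in control, below the filter level, 5.29 with WGA and 3.96 after starvation. It may thus have passed the filter through its treated arrays, and the size of its rise is uncertain. In WGA against starvation 9 of these 10 were called higher, with a median of 1.34, beside 6 of 10 for the GstE cluster. At the top of the delta class were GstD2 (4.87 ± 0.25) and GstD3 (3.82 ± 0.21) with WGA, and GstD9 (2.19 ± 0.25) and GstD10 (1.76 ± 0.18) after starvation. Of 9 tested genes of the theta, omega, sigma, zeta and microsomal classes, 2 were higher and 1 lower with WGA, and 2 higher and 1 lower after starvation. In either direction 21.6% and 15.1% of all tested probe sets were called. With WGA GstT3 fell by 1.63 ± 0.16 and GstS1 rose by 1.21 ± 0.20, while after starvation GstT4 rose by 2.73 ± 0.21 and GstS1 by 1.73 ± 0.20. No test of a difference between classes was made.

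**Figure D3:**
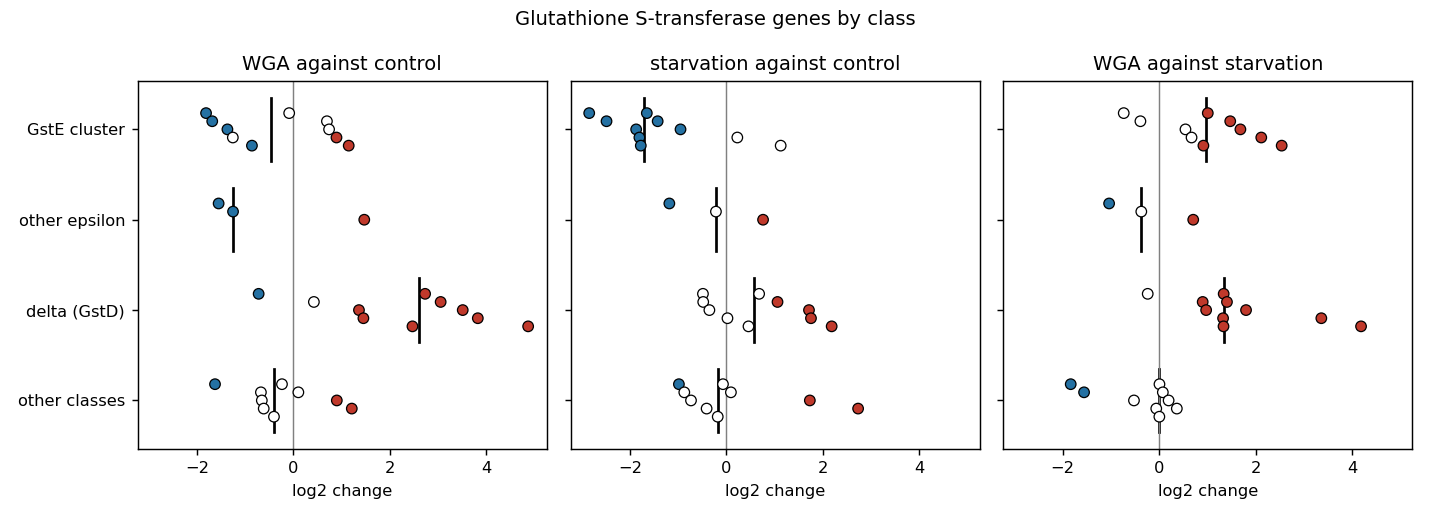
Log2 changes of tested glutathione S-transferase genes by class in the 3 comparisons. Each point is a gene, red where called higher, blue where called lower and open where not called, and the bar is the class median. After starvation the GstE cluster has a median of -1.71 and the delta class one of 0.57.

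Genes that serve the same reaction were counted next. Glutamate-cysteine ligase carries out the first step in making glutathione. Flies, which lack glutathione reductase, keep glutathione reduced through thioredoxin. Of 8 listed genes of glutathione supply 6 were tested, without the glutathione synthetase genes Gss1 and Gss2. Of these 6, 4 were called lower with WGA, against 10.0% of all tested probe sets. The ligase genes Gclm and Gclc fell by 1.59 ± 0.17 and 1.02 ± 0.18, and gb, a cystine and glutamate transporter gene, fell by 1.71 ± 0.26. After starvation 1 was lower (gb, -1.34 ± 0.26) and 1 higher (Ggt-1, 0.51 ± 0.16, a gamma-glutamyl transpeptidase gene), against 7.06% and 8.09%. Gclm and Gclc then had changes of -0.30 ± 0.17 and -0.16 ± 0.18.

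Of 3 tested genes of thiol reduction, Trx2 and Trxr1 were called lower after either treatment. Of all tested probe sets 10.0% were called lower with WGA and 7.06% after starvation. Trx2, a thioredoxin gene, fell by 1.22 ± 0.22 with WGA and by 2.38 ± 0.22 after starvation, and Trxr1 fell by 0.66 ± 0.15 and by 1.13 ± 0.15. Both genes had their lowest mean after starvation, as GstE5 and GstE8 did, although for Trxr1 the difference between treatments, 0.48 ± 0.15, missed the threshold (adjusted p = 0.051). Of 2 tested genes of NADPH supply, Men, the malic enzyme gene, fell by 1.80 ± 0.23 with WGA and by 1.86 ± 0.23 after starvation. Of 4 listed aldehyde-removing genes 2 were found on the array, Aldh-III (an aldehyde dehydrogenase gene) and sni (a carbonyl reductase gene). They fell by 2.57 ± 0.19 and 1.06 ± 0.22 with WGA and by 1.52 ± 0.19 and 1.47 ± 0.22 after starvation.

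Export genes of the multidrug resistance protein family make products that can carry glutathione conjugates out of cells. Of 4 tested, 3 were called higher with WGA, against 11.6% of all tested probe sets. After starvation 0 of 4 were called in either direction by limma (0 at an unadjusted p under 0.05), against 15.1%. MRP rose by 1.92 ± 0.19, Mrp5 by 1.78 ± 0.42 and CG11898 by 2.77 ± 0.43 with WGA. In WGA against starvation the same 3 were higher, by 1.72 ± 0.19, 2.16 ± 0.42 and 2.97 ± 0.43. CG11898 had means of 2.58 in control and 2.38 after starvation, below the filter level, and 5.35 with WGA. It may thus have passed the filter through its WGA arrays, and the size of its rise is uncertain. Among 5 tested regulators, Hr96, a nuclear receptor of the xenobiotic response, rose by 2.29 ± 0.25 with WGA and had a change of -0.13 ± 0.25 after starvation. The gene maf-S, whose product binds DNA with the cap-n-collar factor CncC, rose by 0.70 ± 0.20 with WGA and by 1.15 ± 0.20 after starvation. The gene tgo, whose product is a DNA-binding partner of Spineless, rose by 1.83 ± 0.50 after starvation. With WGA its change of 1.30 ± 0.50 was not called (adjusted p = 0.0858). Its control mean of 3.02 (SD 1.06) lay near the filter level. The cnc gene itself was not called, at -0.53 ± 0.31 and -0.58 ± 0.31, and neither was Keap1, its inhibitor, at 1.05 ± 0.49 and 1.33 ± 0.49. This last pair was chosen after its values were seen.

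**Figure D4:**
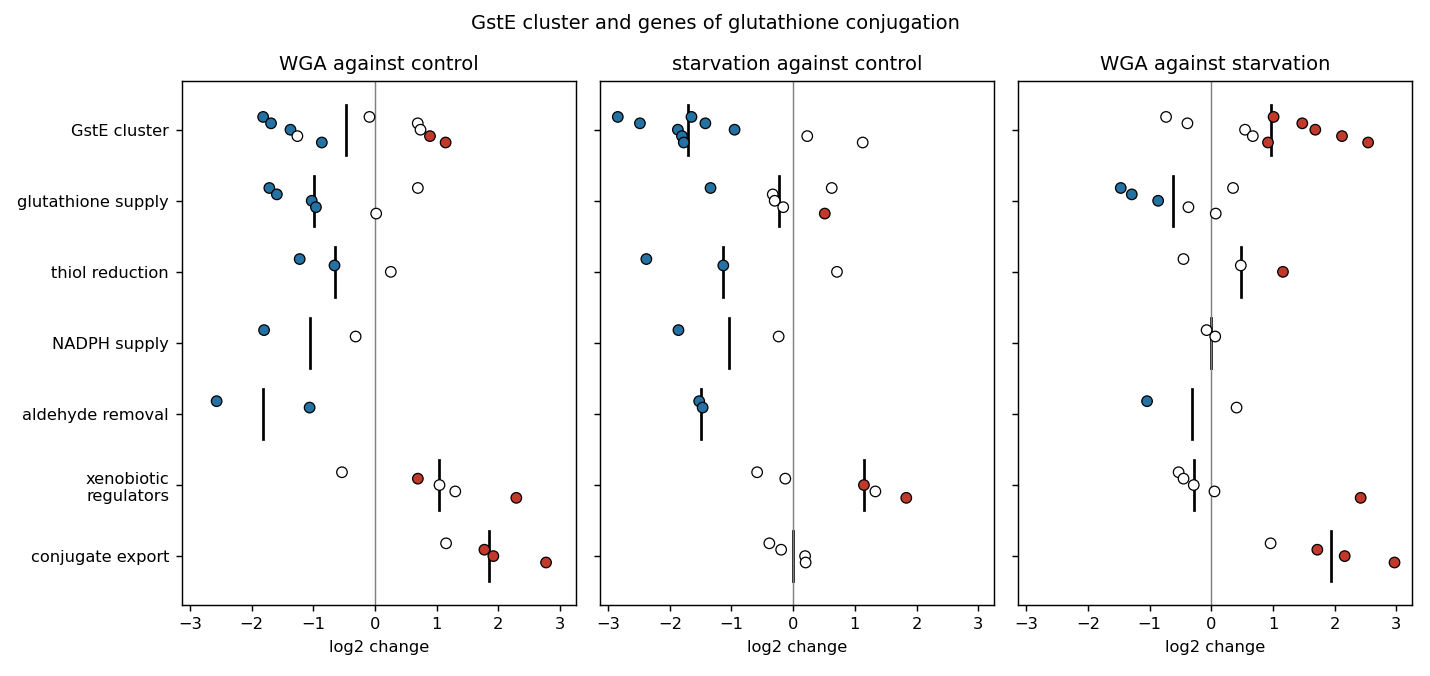
Log2 changes of the GstE cluster and of genes that supply, reduce, regulate or export glutathione conjugation, for the 3 comparisons. Points are genes (red called higher, blue called lower, open not called) and bars are list medians. Export genes lie at 1.15 to 2.77 with WGA and at -0.39 to 0.20 after starvation. The highest with WGA, CG11898, had means below the filter level in control and after starvation.

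Technical measures also differed between the groups. For eIF-4a, the ratio of 3 prime over 5 prime signal, which falls with better RNA integrity, was 2.75 to 3.52 on WGA arrays, 2.83 to 3.56 on starvation arrays and 3.60 to 5.71 on control arrays. That of GAPDH was 2.22 to 2.41, 2.92 to 3.35 and 1.97 to 2.92. Of 6 midgut epithelium markers on the array, mex1, nub, Ssk, mesh and Tsp2A were called higher with WGA, and nub (0.87), GATAe (0.90) and mesh (0.85) after starvation. The summed linear signal of the 6 was 3000 to 3350 with WGA, 1560 to 1800 after starvation and 1300 to 1370 in control. Markers of visceral muscle were not called (0 of 6 with either treatment against control by limma, and 0 with WGA and 1 after starvation at an unadjusted p under 0.05), with sums of 1490 to 3160, 1240 to 1740 and 1770 to 2300. Over all tested probe sets 21.6% were called in either direction with WGA and 15.1% after starvation. Of 4 fat body markers, Lsp2 was called higher after starvation (1.88), and the summed signal was 202 to 395, 211 to 1010 and 241 to 323. Of 5 haemocyte markers, NimC1 and eater lay below the filter level on every array, crq was called higher after starvation (0.98), and the sum was 33.6 to 46, 69.1 to 79.6 and 38.4 to 53.4. The single Malpighian tubule marker measured did not pass the filter, and of 4 enteroendocrine markers AstC was called lower with WGA (-0.91). The part of RNA integrity and of these cell types in the GstE results was not tested. Total deposited signal lay between 909028 and 1457246 on the 9 arrays, whose small number sets the precision.

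**Figure D5:**
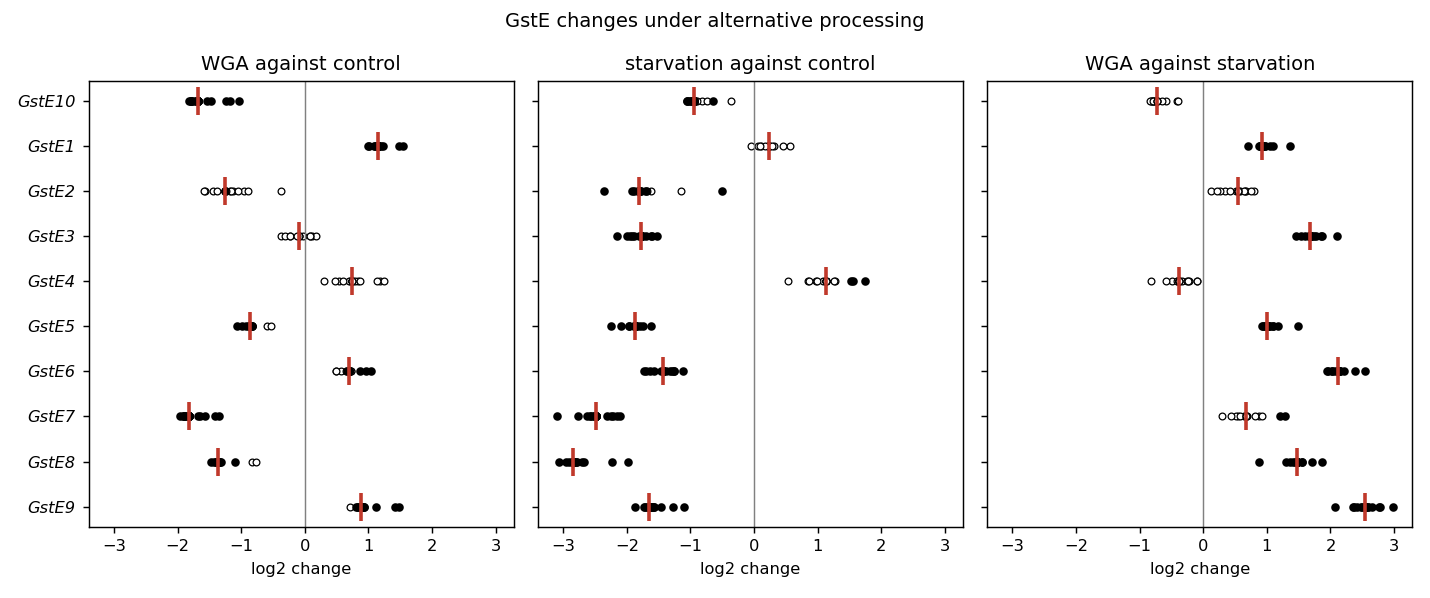
Log2 change of each GstE gene under the alternative settings (points, filled where the adjusted p was under 0.05) and as reported (red bar), in chromosomal order. After starvation GstE3, GstE5, GstE6, GstE7, GstE8 and GstE9 are filled in each of their 20 alternatives, while GstE10 is filled in 14 and GstE2 in 13 of 19.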

How the data were processed

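Biotin-labelled RNA from pools of 50 larval midguts was measured on 9 Affymetrix arrays. The deposited table holds 1 linear signal intensity per probe set and array, made by the authors with the Affymetrix software GCOS, per the submitters' processing notes. The algorithm and scaling target were not given in the sources used here. All 9 columns carry a sample's label. Of 14010 probe sets, 44 controls were left out. A single gene was annotated to 12443 of the rest, more than 1 gene to 327 and no gene to 1196, and 12394 matched the reference by gene ID.

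An offset of 1.722 (the 20th percentile) was added, log2 taken and arrays quantile normalised, which removes any difference in total signal. Probe sets above the 40th percentile on at least 3 arrays (9718, for 7936 genes) were fitted with limma 3.58.1 in R 4.3.3, with group means and an eBayes trend. A gene of a list was represented by its brightest tested probe set. The script was tested on simulated data. Replicate numbers were not used as pairs: residual correlations were -0.035 to 0.095 (same number) and -0.130 to 0.058 (different number). Alternatives covered scaling, offset, filter, variance prior, groups fitted, a replicate block and each array left out. Named were all members, up to 2 called genes per list and comparison (all called ones for some short lists), the 2 most similar genes and the flanking genes. Members and lists were chosen with earlier results of these data known. Sequences and promoter motifs were not analysed here.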

Additional observations from a re-analysis of the deposited data

How the results depend on the processing

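Over the alternatives, 176 of 199 values of single genes kept their direction and side of the threshold in WGA against control, 183 of 199 in starvation against control and 196 of 199 in WGA against starvation. Changes of filter, variance prior, groups fitted or replicate block, and omission of an array outside the comparison, left the log2 change itself as it was. In those alternatives the direction could not turn, and only the adjusted p could move. In starvation against control 8 lower calls stayed at 6 to 8 when an array was left out, and in WGA against starvation 6 higher calls became 5 to 7 over the alternatives. The count of GstE genes higher with WGA against control was 2, and 1 (GstE1) in eBayes without a trend and 1 to 3 when an array was left out. It was 3, with GstE6, under deposited scaling, spike-in scaling, an offset of 16, the filter at the 60th percentile and a fit of only the groups compared. The count lower with WGA was 4, and 2 (GstE7 and GstE10) under deposited scaling or spike-in scaling and 5 (with GstE2) in eBayes without a trend. The count higher after starvation was 0, and 1 (GstE4) with spike-in scaling and 0 to 1 when an array was left out. With a replicate block the counts higher and lower were 3 and 4 with WGA, 0 and 8 after starvation and 6 and 0 in WGA against starvation; GstE6 then passed with WGA (adjusted p = 0.0203), and no other call changed. Leaving out GstE2, chosen after seeing the data, gave 7 lower after starvation and left the other counts as they were. Changes that turned sign were uncalled: GstE3 with WGA at 0.11 (deposited scaling), 0.18 (spike-in scaling), 0.080 (without WGA replicate 1) and 0.082 (without control replicate 3), within -0.32 to 0.082 when an array was left out, and GstE1 after starvation at -0.048 (median centring). The cause of these shifts was not tested. The filter at the 60th percentile gave no value for GstE2 and another choice of probe set none for any member, since each has a single one.

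Over all probe sets, 1123 were called higher and 976 lower with WGA, against 2118 and 460 under deposited scaling and 2263 and 418 under spike-in scaling. After starvation 786 and 686 became 533 and 459 with the deposited scaling, 579 and 817 with median centring, 1752 and 256 with spike-in scaling and 512 and 496 without a trend. In WGA against starvation 576 and 539 became 1009 and 180, 702 and 419, 351 and 270, and 395 and 344 under the same 4 settings. With an array left out these counts were 748 to 1156 and 754 to 1014, 505 to 803 and 510 to 700, and 362 to 621 and 357 to 570. Signals near the filter level limit GstE2 and GstE4.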
